A study of Homo sapiens with 10 samples.

Results

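The expression of 10 annexin and S100 genes was compared in C33A cells that received a SWI/SNF ATPase. The genes are 5 annexins (ANXA1, ANXA2, ANXA3, ANXA5 and ANXA6) and 5 members of the S100 family (S100A2, S100A4, S100A6, S100A10 and S100A11). They were matched by symbol to their Ensembl identifiers, and all 10 were found among the 63152 identifiers of each expression table. C33A is a line from a human cervical carcinoma, described in the study as SWI/SNF deficient. In all, 5 groups of 2 libraries of poly(A) RNA were made 48 h after transient transfection. The control group received the vector pOPRSVI, BRG1-wt and BRM-wt received functional ATPases, and BRG1-mut and BRM-mut received the same ATPases with a point mutation that removes the ATPase activity. According to the methods of the study the BRG1 plasmids were made in pBJ5 and the BRM plasmids in pCG, so that the ATPase and the vector backbone cannot be told apart in a comparison with the control. The wild-type and the mutated form of an ATPase share the backbone, so that their comparison is matched for the vector. It is not matched for the amount of ATPase, since the study reports slightly more protein of the wild-type forms. Only some of the cells of a transient transfection take up a plasmid, and every value is a mean over all cells of the dish, in which more cells with a transcript and more RNA per cell cannot be told apart.

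Annexins are proteins that bind acidic phospholipids when calcium is present, and they take part in membrane repair, vesicle traffic and the link between membranes and the actin cortex. S100 proteins are small dimers with EF-hands that change shape when calcium binds and then dock to target proteins, annexins among them. The best known complex of both families joins annexin A2 with S100A10, which anchors at the inner face of the plasma membrane and, at the cell surface, helps tissue plasminogen activator to act on plasminogen. S100A11 binds annexin A1, S100A6 binds the calcyclin-binding protein and several annexins, and S100A4 binds non-muscle myosin and is known from cell motility and metastasis. Most S100 genes lie in a cluster on the long arm of chromosome 1.

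The deposited tables each hold 1 ATPase group and the control, 4 libraries in all, and give for each gene the mean normalised count over the 4 libraries (base mean), a log2 fold change that DESeq2 shrank towards 0, and its standard error (SE). The tables have no values of single libraries, so the spread of a group is known only through the SE, and the tables do not give the depth of a library. The amount of shrinkage differs between tables. It was undone from the SE and the largest SE of each table, which gives approximate levels in control and in the ATPase group, named here reconstructed levels. The same 2 control libraries stand in all 4 tables, and the reconstructed control level of a gene agreed between tables with a median absolute deviation of 0.00096, 0.00031 and 0.00025 on the log2 scale (BRG1-mut, BRM-wt and BRM-mut against BRG1-wt, over 11721 to 11827 genes whose base mean reached 100). With the values as deposited it was 0.0082, 0.011 and 0.030. These medians do not show how well strongly changed genes agreed. Among the largest disagreements, undoing the shrinkage made agreement worse for BRM-wt and better for BRG1-mut and BRM-mut. S100A16 had a reconstructed control level of 93.5 beside BRM-wt, against 35.3 to 44.4 beside the other ATPases. PLSCR1 had 452 against 214 to 240. For ANXA3 and S100A4 the ranges over all 4 tables were 36.4 to 41.8 and 59.0 to 64.0. The study describes duplicates of transfected cells, and the labels do not say whether these were separate cultures, so that p-values measure the spread between these libraries, which may be technical.

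The transfected genes were checked first. SMARCA4, which encodes BRG1, had a base mean of 25802 in the table of BRG1-wt, 29824 in that of BRG1-mut, 3864 with BRM-wt and 3076 with BRM-mut. SMARCA2, which encodes BRM, had 59658 where BRM-wt was given and 75591 with BRM-mut, against 12.6 and 9.33 in the tables of BRG1-wt and BRG1-mut. Each ATPase gene was therefore high where its plasmid was given, and RNA of SMARCA4 was also counted in tables without a BRG1 plasmid. Of the 5 epithelial markers listed, KRT19 had base means of 1.23 and 1.19 and CDH1 6.27 and 5.31 in the tables of BRG1-wt and BRM-wt. KRT8 and KRT18 had base means between 90.8 and 696 over the 4 tables. EPCAM was also on the list, and its value is not given here. The markers of the list thus differed widely in level and do not settle how epithelial the cells were.

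Per kilobase of transcript, the scale on which genes can be compared, the 10 genes spanned 4 orders of magnitude in control cells. ANXA5, a phosphatidylserine-binding protein used as a probe of dying cells, had the highest reconstructed control level, 9960 to 10600 normalised counts per kb over the 4 tables. ANXA2, counted without its pseudogenes, followed with 7477 to 7958 and S100A10 with 4648 to 4947. ANXA1, a ligand of formyl peptide receptors, had 1950 to 2075, and ANXA6, a large annexin of endosomes and the cell cortex, had 1287 to 1370. These 5 genes were the abundant ones. S100A2 had 194 to 206, S100A4 115 to 125 and ANXA3 25.4 to 29.2 normalised counts per kb. S100A11 had 2.66 to 2.82 and S100A6 0.92 to 1.64, so that both were at or near the limit of detection. The tables give no spread between the control libraries, and the order of neighbours was not tested.

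**Figure D1:**
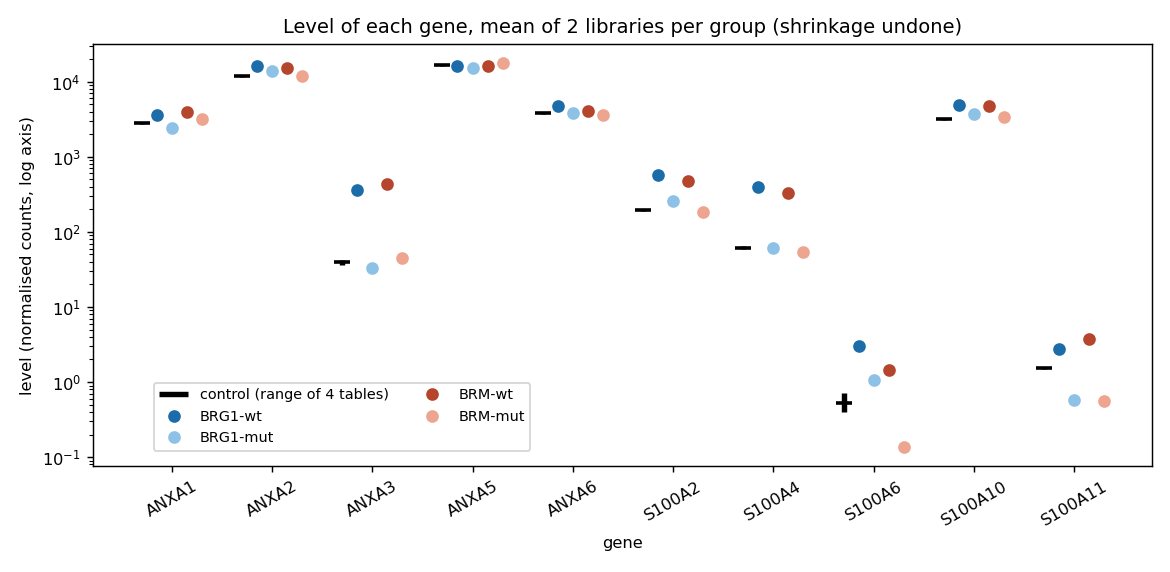
Reconstructed level of each gene, in normalised counts on a log axis and not per length, in control (black bar, range of the estimate over the 4 tables, with a tick at the median) and in each ATPase group (points, mean of 2 libraries). ANXA3, S100A4 and S100A2 lie above control in BRG1-wt and BRM-wt, and the abundant annexin ANXA5 lies near its control level in all groups. ANXA2 had 16104 in BRG1-wt against 12153 in control, a difference that is small on this axis.

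Copies of these genes elsewhere in the genome limit some values. The annotation holds 3 pseudogenes of ANXA2, and 1 of them, ANXA2P2, had a base mean of 23434 in the table of BRG1-wt against 14129 for ANXA2 itself. In the tables of BRG1-mut, BRM-wt and BRM-mut ANXA2P2 had 20131, 23090 and 21746. Reads of ANXA2 and ANXA2P2 can be assigned to either, so that the level of ANXA2 is uncertain. Summed, both had a base mean of 32903 to 37563 over the 4 tables, above the 15914 to 17507 of ANXA5. The canonical transcripts of ANXA2 and ANXA5 have 1554 and 1638 bases. Which of them is the most abundant of the 10 thus depends on this assignment. The log2 fold change of ANXA2P2 was 0.32 ± 0.13 (SE) in BRG1-wt and 0.33 ± 0.25 (SE) in BRM-wt, next to 0.36 ± 0.12 and 0.30 ± 0.24 for ANXA2. For S100A11, 8 pseudogenes are annotated, and their base means lay between 0 and 0.45 in the 4 tables. No pseudogene named after the other 8 genes is annotated. Of the 10 genes, S100A6 shares 37 exonic bases with another annotated gene, a transcript on the opposite strand.

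In BRG1-wt, 4 of the 8 genes that DESeq2 tested rose against control at an adjusted p under 0.05 (ANXA3, S100A4, S100A2 and S100A10), and none fell. Among all 18391 genes tested, 1.38% rose and 0% fell. The median log2 fold change was 0.43 over the 8 genes tested and 0.33 over all 10, against 0.0019 over all genes tested. S100A6 and S100A11 received no adjusted p, since their counts lay under the threshold that DESeq2 sets. In BRM-wt, 2 of 8 rose (ANXA3 and S100A4) and none fell, against 0.567% of 17805 genes that rose. The median was 0.40 over the 8 genes, 0.32 over all 10 and 0.011 over all genes tested. In BRG1-mut, 0 of 7 genes were called by DESeq2 in either direction, while 4.86% of 13548 genes rose, and 0 of the 10 had an unadjusted p under 0.05. In BRM-mut, 0 of 10 were called, against 0.00703% of 28464 genes that rose, and again 0 had an unadjusted p under 0.05. The median over the genes tested was 0.036 in BRG1-mut and -0.0082 in BRM-mut, against -0.026 and -0.0019 over all genes tested. All 4 comparisons share the 2 control libraries and are not independent of each other.

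**Figure D2:**
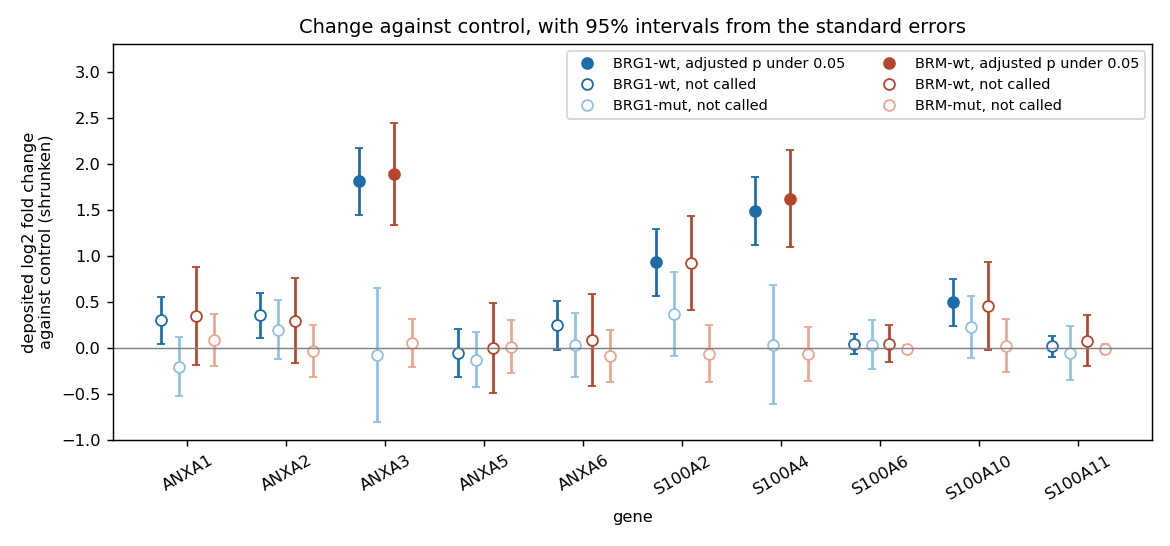
Deposited, shrunken log2 fold change against control of the 10 genes in the 4 ATPase groups, with 95% intervals from the SE. Filled symbols have an adjusted p under 0.05 (4 genes in BRG1-wt, 2 in BRM-wt), and intervals of all values in BRG1-mut and BRM-mut include 0.

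ANXA3 (ENSG00000138772, chr4:79472901-79531605 on the plus strand of GRCh37) changed most. It encodes an annexin first known as an inhibitor of phospholipase A2 and later studied in tumour progression. Its base mean was 202 with BRG1-wt, 237 with BRM-wt, 34.9 with BRG1-mut and 41.6 with BRM-mut. The deposited log2 fold change was 1.81 ± 0.19 (SE) in BRG1-wt, with an adjusted p of 4.06e-19 from DESeq2, and 1.89 ± 0.28 (SE) in BRM-wt, with an adjusted p of 2.26e-08. On this shrunken scale these are 3.50-fold and 3.71-fold increases. The reconstructed level was 36.4 to 41.8 normalised counts in control, 362 in BRG1-wt and 434 in BRM-wt, which is 8.65 and 10.6 times the control. With the mutated ATPases the level was 33.5 (BRG1-mut) and 45.2 (BRM-mut), and the deposited log2 fold changes were -0.07 ± 0.37 (SE) and 0.06 ± 0.13 (SE). DESeq2 gave no adjusted p for ANXA3 in BRG1-mut, where the unadjusted p was 0.846. Both wild-type groups were thus far above control, and both mutant groups lay near it.

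S100A4 (ENSG00000196154, chr1:153516089-153522612 on the minus strand) was the S100 gene of the set with the largest change. Its base mean was 228 with BRG1-wt, 193 with BRM-wt, 60.02 with BRG1-mut and 57.5 with BRM-mut. The deposited log2 fold change was 1.49 ± 0.19 (SE) in BRG1-wt (adjusted p = 1.12e-12, DESeq2) and 1.62 ± 0.27 (SE) in BRM-wt (adjusted p = 1.08e-06, DESeq2). Reconstructed levels were 59.0 to 64.0 normalised counts in control, 393 in BRG1-wt and 327 in BRM-wt. In BRG1-mut and BRM-mut they were 61.0 and 53.5, with log2 fold changes of 0.04 ± 0.33 (SE) and -0.06 ± 0.15 (SE). Per kb, S100A4 in BRG1-wt cells reached 765 normalised counts, which places it between S100A2 (592) and ANXA6 (1649) in these cells. The span of S100A4 contains S100A3, with which it shares no exonic base in the annotation.

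S100A2 (ENSG00000196754, chr1:153533584-153540366 on the minus strand), a mostly nuclear S100 protein of epithelia that is induced by p53, had a base mean of 389 with BRG1-wt and 332 with BRM-wt. Its log2 fold change was 0.93 ± 0.19 (SE) in BRG1-wt, with an adjusted p of 8.28e-05 from DESeq2. In BRM-wt the value was nearly the same, 0.92 ± 0.26 (SE), but the adjusted p of 0.0638 from DESeq2 missed the threshold. Reconstructed levels were 190 to 202 normalised counts in control, 578 in BRG1-wt and 475 in BRM-wt. In BRG1-mut the level was 257, with a log2 fold change of 0.37 ± 0.23 (SE, adjusted p = 0.507, DESeq2). BRM-mut had 186 and a log2 fold change of -0.06 ± 0.16 (SE).

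Promoter sequence is shown for the 3 of the 10 genes with the largest changes in BRG1-wt, to set their start regions side by side. RefSeq promoters (GRCh38.p14, from 250 bases before to 50 after the start) were found for all 10 genes, 12 promoters in all, since ANXA6 and S100A2 each have 2. The 60 bases before each start read as follows, 5′ to 3′ on the strand of the gene, with matches to the searched motifs in capitals.
ANXA3, chr4:78551710-78551769, plus strand: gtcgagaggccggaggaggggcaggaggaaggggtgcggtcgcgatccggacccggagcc
S100A4, chr1:153545807-153545866, minus strand: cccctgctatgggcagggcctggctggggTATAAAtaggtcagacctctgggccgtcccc
S100A2, first promoter, chr1:153565845-153565904, minus strand: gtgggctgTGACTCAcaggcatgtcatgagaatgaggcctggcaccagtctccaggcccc
S100A2, second promoter, chr1:153563888-153563947, minus strand: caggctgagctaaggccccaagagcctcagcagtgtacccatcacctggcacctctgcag
The capitals mark a TATA match 31 bases before the start of S100A4 and an AP-1 match 52 bases before the first start of S100A2.

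Searched in the whole windows on both strands were the AP-1 letters TGANTCA, which read the same on either strand, the TEAD letters GGAATG, the GC box GGGCGG and the TATA letters TATAAA. AP-1 letters occurred in promoters of 2 of the 10 genes, S100A2 and ANXA2, and in 7.71% of all 35116 promoters. TATA letters occurred in 3 genes (ANXA1, ANXA2 and S100A4) and in 11.5% of all promoters. A GC box was present in 6 genes (ANXA2, ANXA5, ANXA6, S100A6, S100A10 and S100A11) and in 45% of all promoters, and TEAD letters in none of the 10 and in 14% of all. The window of ANXA3 held none of the 4 motifs. No motif was thus common to the 3 genes that rose most, and a match describes letters only.

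S100A10 and ANXA2, which encode the subunits of the annexin A2 complex, were both abundant and differed in their calls. S100A10 (ENSG00000197747, chr1:151955391-151966335 on the minus strand) had a base mean between 3366 and 4064 in the 4 tables. In BRG1-wt its log2 fold change was 0.50 ± 0.13 (SE), a 1.41-fold rise on the shrunken scale, with an adjusted p of 0.0131 from DESeq2, and the reconstructed level went from 3262 to 4866 normalised counts. In BRM-wt it was 0.46 ± 0.24 (SE), with an adjusted p of 1.00 and an unadjusted p of 0.0601 from DESeq2. It was 0.22 ± 0.17 (SE) in BRG1-mut and 0.03 ± 0.15 (SE) in BRM-mut. ANXA2 (ENSG00000182718, chr15:60639333-60695082 on the minus strand) had a log2 fold change of 0.36 ± 0.12 (SE) in BRG1-wt, with an unadjusted p of 0.0044 and an adjusted p of 0.210 from DESeq2. In BRM-wt it was 0.30 ± 0.24 (SE), in BRG1-mut 0.20 ± 0.16 (SE) and in BRM-mut -0.03 ± 0.14 (SE), none of them called.

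The remaining abundant annexins were not called in any group. ANXA1 (ENSG00000135046, chr9:75766781-75785309 on the plus strand) had log2 fold changes of 0.30 ± 0.13 (SE) in BRG1-wt and 0.35 ± 0.27 (SE) in BRM-wt, and of -0.20 ± 0.16 (SE) in BRG1-mut and 0.09 ± 0.15 (SE) in BRM-mut. ANXA6 (ENSG00000197043, chr5:150480267-150537376 on the minus strand) ranged from -0.08 to 0.25 over the 4 groups. ANXA5 (ENSG00000164111, chr4:122589101-122618150 on the minus strand) ranged from -0.12 to 0.02, and its 95% interval in BRG1-wt ran from -0.31 to 0.21.

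S100A6 (ENSG00000197956, chr1:153507075-153508720 on the minus strand) had a base mean between 0.27 and 1.87 and S100A11 (ENSG00000163191, chr1:152004982-152020383 on the minus strand) between 1.03 and 2.66. At these counts a change was not detectable, and no fold is given. Both genes are abundant in many epithelial and mesenchymal cells, and in the 4 tables of C33A they were counted at a few reads at most.

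The comparison of the wild-type with the mutated ATPase asks whether a change goes with the ATPase activity. The amounts of ATPase also differed. Base means of SMARCA4 were 25802 with BRG1-wt and 29824 with BRG1-mut, and those of SMARCA2 59658 with BRM-wt and 75591 with BRM-mut. The study reports slightly more protein of the wild-type forms, and the part of the amount in these differences was not tested. The difference of the log2 fold changes was tested against the root of the summed squares of both SE and adjusted over all genes by the Benjamini-Hochberg method. This error leaves out that the controls are shared. The deposited values and errors are also shrunken by different amounts in the tables, with an SE of ANXA3 in BRM-mut of 0.13 as deposited and 0.58 with the shrinkage undone, so that both scales are given. In BRG1-wt minus BRG1-mut, 1 of 10 genes differed, against 0.151% of 27235 genes that were higher in BRG1-wt. This was ANXA3, with a difference of 1.88 ± 0.42 (SE) and an adjusted p of 0.00741 from the test across all genes on the DESeq2 values. S100A4 differed by 1.45 ± 0.38 (SE), with an unadjusted p of 0.00013 and an adjusted p of 0.0720 from the same test on the DESeq2 values. After the shrinkage was undone, the differences were 3.24 ± 0.71 (SE) for ANXA3 and 2.57 ± 0.55 (SE) for S100A4, and both were called (adjusted p = 0.00381 and 0.00293, DESeq2 values with shrinkage undone), as were 0.187% of genes. S100A2 differed by 0.56 ± 0.30 (SE) with a 95% interval from -0.02 to 1.15, and ANXA1 by 0.50 ± 0.21 (SE) with an interval from 0.09 to 0.91. After the shrinkage was undone, S100A2 differed by 1.12 ± 0.40 (SE) with an interval from 0.33 to 1.91. ANXA1 then differed by 0.56 ± 0.23 (SE) with an interval from 0.11 to 1.01. Neither gene passed the adjustment on either scale.

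In BRM-wt minus BRM-mut, ANXA3 differed by 1.83 ± 0.31 (SE) and S100A4 by 1.69 ± 0.31 (SE), with adjusted p-values of 8.52e-06 and 3.96e-05 from the same test on the DESeq2 values. These were 2 of 10 genes, against 0.24% of 27091 genes. After the shrinkage was undone the difference of ANXA3 was 3.16 ± 0.77 (SE) with an adjusted p of 0.0593, and that of S100A4 was 2.67 ± 0.62 (SE) with an adjusted p of 0.0286 (DESeq2 values with shrinkage undone), where 0.0591% of genes were called. The call of ANXA3 was thus lost while its difference became larger. S100A2 differed by 0.98 ± 0.30 (SE), with an unadjusted p of 0.00125 and an adjusted p of 0.316 from the test on the DESeq2 values. With the shrinkage undone, S100A2 differed by 1.44 ± 0.49 (SE) and was not called either. ANXA5 differed by -0.01 ± 0.29 (SE) as deposited and by -0.02 ± 0.39 (SE) with the shrinkage undone.

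**Figure D3:**
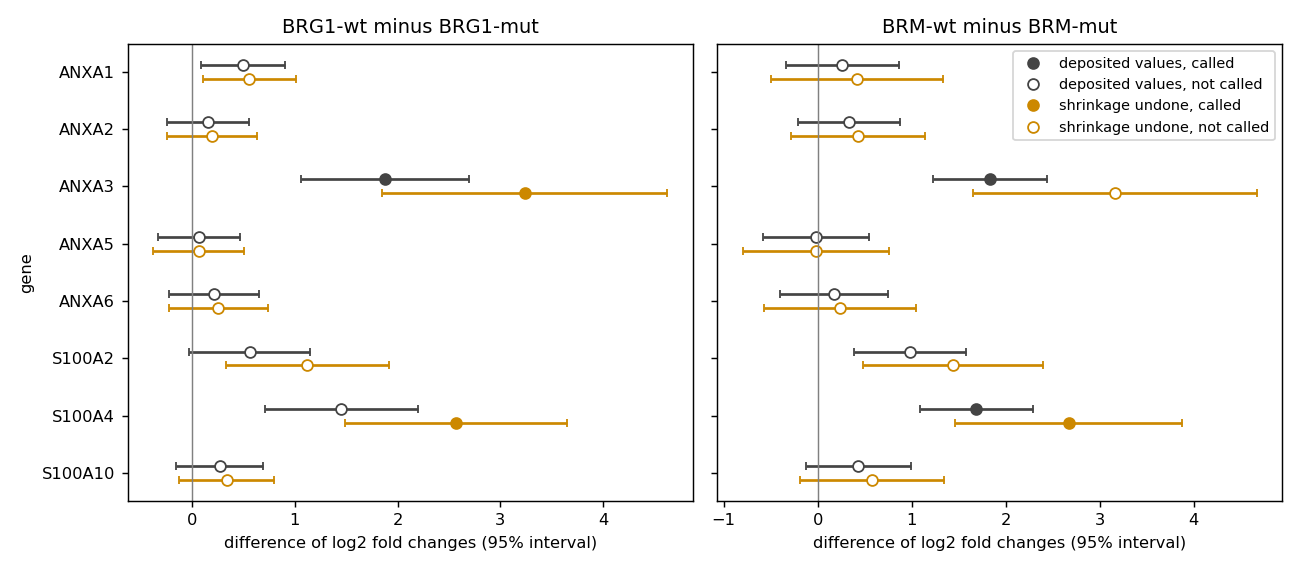
Difference of the log2 fold changes between the wild-type and the mutated form of each ATPase, with 95% intervals, as deposited (grey) and after the shrinkage was undone (orange), for the 8 genes above the limit of detection. Filled symbols were called, which were ANXA3 and S100A4 on at least 1 scale in both panels. The intervals of S100A10, ANXA2, ANXA5 and ANXA6 include 0.

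BRG1 and BRM were compared in the same way. Between BRG1-wt and BRM-wt, 0 of 10 genes differed by this test on the DESeq2 values, and 0 had an unadjusted p under 0.05. The share of all 27346 genes was 0.00731% in each direction. The difference (BRG1-wt minus BRM-wt) was -0.08 for ANXA3 with a 95% interval from -0.74 to 0.58, -0.13 for S100A4 (-0.77 to 0.51), 0.01 for S100A2 (-0.61 to 0.63) and 0.04 for S100A10 (-0.51 to 0.58). Differences inside these intervals could not be detected with 2 libraries per group. Between BRG1-mut and BRM-mut, 0 of 10 genes differed, against 0.469% of 27062 genes that were higher in BRG1-mut and 0.00739% that were lower, and 0 of the 10 had an unadjusted p under 0.05.

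The 3 genes with the pattern most like that of ANXA3 over the 4 groups were taken from 11640 other genes whose base mean reached 100 in every table. The distance between the 4 deposited, shrunken log2 fold changes was used. ANXA3 itself had base means of 34.9 in BRG1-mut and 41.6 in BRM-mut, so that genes as low as ANXA3 in these tables were not searched. F3, which encodes tissue factor, lay at a distance of 0.15, with log2 fold changes of 1.78 in BRG1-wt, -0.20 in BRG1-mut, 1.84 in BRM-wt and 0.03 in BRM-mut. MMP1, an interstitial collagenase, lay at 0.16, with 1.96, -0.07, 1.84 and 0.08 in the same order. MATN2, a matrix adaptor protein, lay at 0.43, with 1.66, 0.22, 1.61 and 0.12.

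Other genes of both families were examined from lists. The counts of each list here and below stand against the shares of all genes tested that rose. These were 1.38% in BRG1-wt, 0.567% in BRM-wt, 4.86% in BRG1-mut and 0.00703% in BRM-mut. Of 15 other S100 genes, 3 of the 6 tested rose in BRG1-wt (S100A13, S100A14 and S100A16), 2 of 6 in BRM-wt (S100A14 and S100A16), and none were called by DESeq2 in BRG1-mut or BRM-mut. The median log2 fold change of those tested was 0.68 in BRG1-wt and 0.76 in BRM-wt. It was 0.43 over the 2 tested in BRG1-mut and 0.0025 over the 10 tested in BRM-mut. S100A16, a widely expressed S100 protein, had a log2 fold change of 2.80 ± 0.18 (SE, adjusted p = 6.14e-51, DESeq2) in BRG1-wt and 1.72 ± 0.28 (SE, adjusted p = 7.36e-07, DESeq2) in BRM-wt, with 0.62 ± 0.35 (SE) in BRG1-mut and -0.01 ± 0.12 (SE) in BRM-mut. S100A14 had 0.83 ± 0.17 (SE) and 0.99 ± 0.26 (SE) in the wild-type groups, and S100A13 had 0.88 ± 0.19 (SE) and 0.87 ± 0.28 (SE), of which the second was not called. In BRG1-mut and BRM-mut, S100A14 had 0.43 ± 0.33 (SE) and 0.04 ± 0.06 (SE). S100A13 had 0.23 ± 0.33 (SE) and -0.01 ± 0.14 (SE) there. S100A14 received no adjusted p in BRG1-mut. Of 8 other annexins, none of the 4 tested in BRG1-wt and none of the 3 tested in BRM-wt were called by DESeq2. ANXA4, ANXA7 and ANXA11, with base means of 2023, 5034 and 2101 in the table of BRG1-wt, had log2 fold changes of 0.14, -0.03 and 0.14 there.

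Of the 6 S100 genes that rose in BRG1-wt, 5 lie within 95.1 kb of S100A6 on chromosome 1, and whether this is closer than for other genes was not tested. Starts were taken here as the outermost 5′ end of the annotated gene, which can differ from the RefSeq starts of the promoters shown above. S100A4 and S100A2 start 13.9 and 31.6 kb from the start of S100A6, and S100A16, S100A14 and S100A13 start 76.9, 80.7 and 95.1 kb from it. The genes between them were not all called. S100A5 had a log2 fold change of 0.39 ± 0.13 (SE, adjusted p = 0.155, DESeq2) and S100A3 0.52 ± 0.16 (SE, adjusted p = 0.0537, DESeq2) in BRG1-wt, at base means of 19.8 and 27.6. S100A1 had 0.31 ± 0.11 (SE, adjusted p = 0.283, DESeq2). With the shrinkage undone, the values in BRG1-wt were 2.75 for S100A5, 2.42 for S100A3 and 3.13 for S100A1, at low counts. For the called genes S100A4, S100A2, S100A16, S100A14 and S100A13 they were 2.62, 1.54, 4.26, 3.26 and 1.62. The calls thus do not order these genes by the size of the change. On the other side of S100A6, S100A7 and S100A9 had base means under 1 in the table of BRG1-wt, and S100A8, S100A12 and S100A7A were listed at 0 there and in the table of BRM-wt. S100A10, which also rose in BRG1-wt, starts 1542 kb away.

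**Figure D4:**
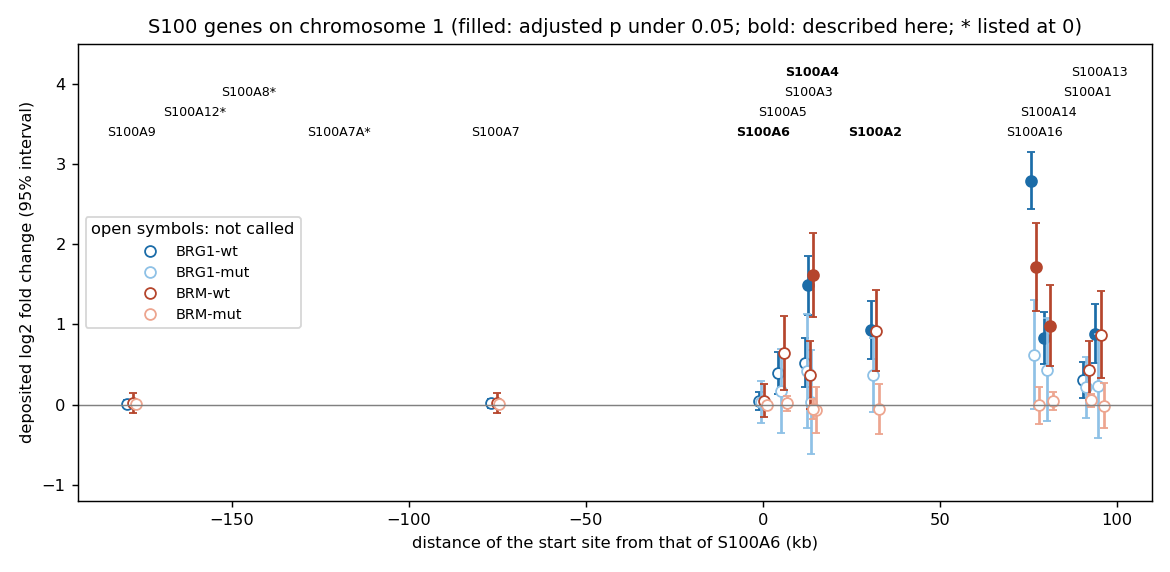
Deposited log2 fold change, with 95% intervals, of S100 genes in the cluster on chromosome 1 by the distance of their start from that of S100A6 in kb. Starts are the outermost 5′ ends of the annotated genes. Filled symbols were called. S100A4, S100A2, S100A16, S100A14 and S100A13 rose in BRG1-wt, S100A6 had too few counts to be tested, and values of the mutants were not called.

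Partners and receptors of these proteins were listed separately (19 genes). In BRG1-wt 4 of 15 tested rose (AHNAK, PLAT, PLAUR and PLSCR1) and in BRM-wt 3 of 14 (the same without PLAT). None of 9 tested in BRG1-mut and none of 17 in BRM-mut were called by DESeq2. The median log2 fold change of the genes tested was 0.28 in BRG1-wt, 0.16 in BRM-wt, 0.22 in BRG1-mut and -0.01 in BRM-mut. PLSCR1, a scramblase that is also induced by interferon, had 1.82 ± 0.19 (SE) in BRG1-wt and 1.22 ± 0.28 (SE) in BRM-wt. AHNAK, a giant scaffold protein that binds the complex of annexin A2 and S100A10, had 0.87 ± 0.13 (SE) and 0.97 ± 0.25 (SE), and PLAUR, the urokinase receptor, 0.88 ± 0.19 (SE) and 1.09 ± 0.28 (SE). MYH9, the myosin to which S100A4 binds, was not called, with 0.46 ± 0.17 (SE) and 0.25 ± 0.28 (SE) in the wild-type groups and 0.72 ± 0.25 (SE, adjusted p = 0.0593, DESeq2) in BRG1-mut. The receptors FPR1 and FPR3 were listed at 0 in both wild-type tables.

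Among 25 other calcium-binding genes, 2 of 24 rose in BRG1-wt (CALB1 and CAPN2), 1 of 24 in BRM-wt (CALB1), 1 of 21 in BRG1-mut (RCN3) and 0 of 24 in BRM-mut. The count in BRG1-mut is near the 4.86% of all genes that rose there. With the GC trend subtracted, RCN3 had a log2 fold change of 0.28 in BRG1-mut and was not called. CALB1, a calcium buffer of neurons and kidney, had a log2 fold change of 1.08 ± 0.19 (SE) in BRG1-wt and 1.18 ± 0.28 (SE) in BRM-wt. The median of the list was 0.05 in BRG1-wt and 0.04 in BRM-wt. Of markers and response genes, 2 of 4 epithelial markers tested (KRT8 and KRT18) rose in BRG1-wt and 2 of 3 in BRM-wt, 0 of 7 fibroblast markers were called in either, and 0 of 3 and 0 of 2 blood and endothelial markers were called in BRG1-wt and BRM-wt. The summed base mean of the epithelial markers was 1183 in the table of BRG1-wt, 439 in that of BRG1-mut, 991 with BRM-wt and 389 with BRM-mut. Fibroblast markers summed to 4565 to 5126 and blood and endothelial markers to 1539 to 1860 over the 4 tables, with CD3E at 0 in all 4. Each sum rests mostly on 1 gene. In the table of BRG1-wt the highest gene held 4017 of 5126 for fibroblast and 1606 of 1621 for blood and endothelial markers. It held 696 of 1183 for epithelial markers. The sums therefore do not rank cell types. Of 11 interferon response genes tested, 7 rose in BRG1-wt and 5 in BRM-wt. In BRG1-mut 1 of 7 rose and in BRM-mut 0 of 11, and the summed base mean was 37561, 33554, 11620 and 10475 in the tables of BRG1-wt, BRM-wt, BRG1-mut and BRM-mut. Their part in the changes of the annexin and S100 genes was not tested.

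In BRG1-mut the fold changes of all genes rose with exonic GC content, and this matters for genes with a high or low GC content. The median log2 fold change of genes whose base mean reached 100 was -0.21 in the lowest and 1.03 in the highest of 50 bins of GC content. In BRG1-wt it was -0.09 and 0.20, in BRM-wt 0.00 and 0.16, and in BRM-mut 0.08 and -0.09. S100A2 and S100A4 have an exonic GC content of 55.0% and 54.5%, ANXA3 43.6% and ANXA1 36.7%. With the trend subtracted, the log2 fold change of S100A2 in BRG1-mut was 0.10 and that of S100A4 -0.24, instead of 0.37 and 0.04. In BRG1-wt, values with the trend subtracted were 1.88 for ANXA3, 1.40 for S100A4, 0.84 for S100A2 and 0.56 for S100A10, all of which were called again, and ANXA2 was called in addition (0.43 ± 0.12 SE, adjusted p = 0.0455 from DESeq2 values with the trend subtracted), at a share of 1.43% of all genes. The difference between BRG1-wt and BRG1-mut was then also called for S100A4, at 1.64 ± 0.38 (SE, adjusted p = 0.00126, same values), where 2.07% of all genes were higher in BRG1-wt and S100A6, at 0.52 and under 2 counts, was called too.

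**Figure D5:**
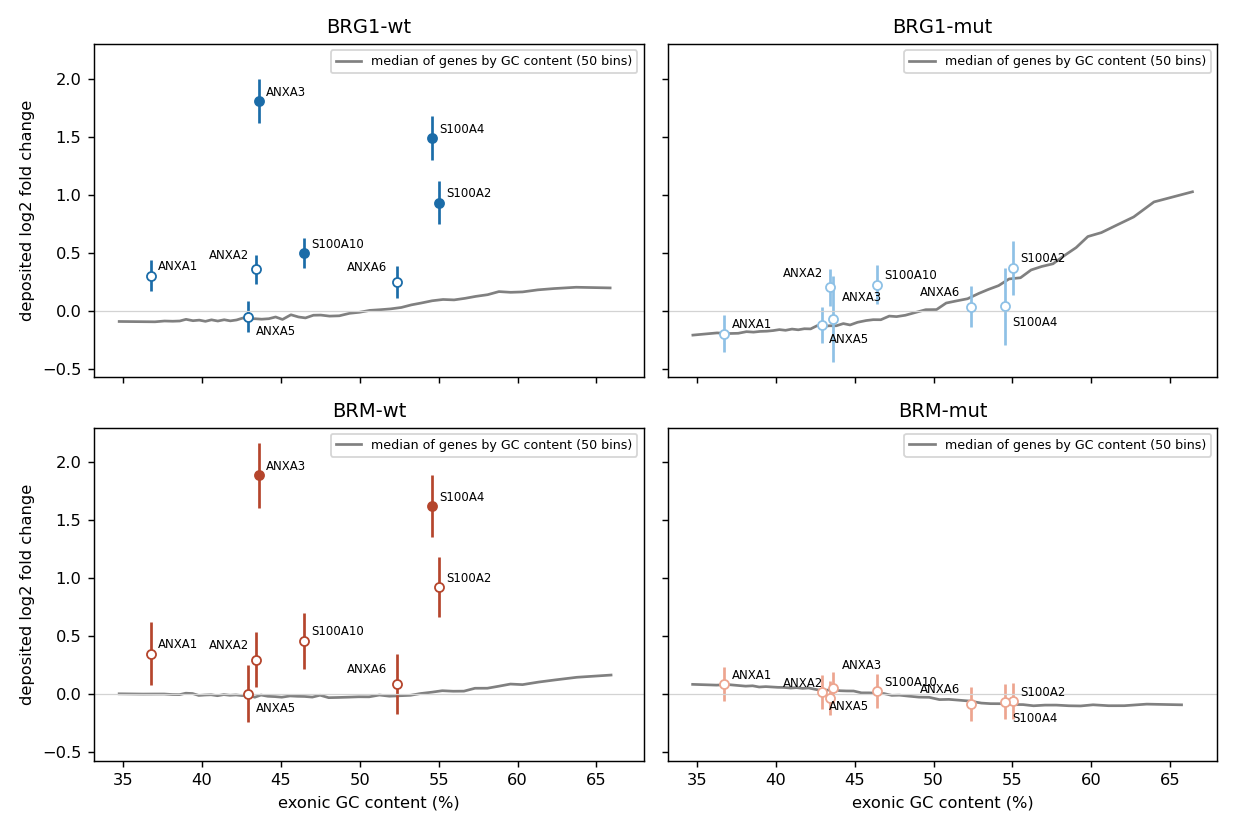
Deposited log2 fold change of 8 genes (points, with 1 SE) by their exonic GC content in %, and the median of all genes whose base mean reached 100 in 50 bins of GC content (line), in the 4 groups. ANXA3, S100A4, S100A2 and S100A10 lie above the line in BRG1-wt, and the line rises to 1.03 at high GC content in BRG1-mut.

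Exon events of these genes were searched in the 8 tables of MISO, which set 1 ATPase library against the control library of the same number and list events with a Bayes factor above 10. The fraction of transcripts that include an exon (PSI) is given for both libraries. In all, 3 exons were listed, in 4 entries, 1 of ANXA6 and 2 of ANXA2, and each of the entries came from a replicate 2 library. No entry was found in replicate 1 or in BRG1-wt, no exon was listed in both replicates of a group, and the tables give no reads per event. Over all genes, replicates 1 and 2 listed 631 and 396 events in BRG1-wt and 723 and 632 in BRG1-mut. They listed 830 and 977 in BRM-wt and 516 and 486 in BRM-mut. Events of any gene found in both replicates were 57 of 970 in BRG1-wt and 145 of 1210 in BRG1-mut. They were 293 of 1514 in BRM-wt and 48 of 954 in BRM-mut. With so few entries, their absence from a group or replicate is not a result about these genes. In BRM-wt, 293 events of any gene were listed in both replicates and 13 of them changed in the same direction. Its 2 listed PSI changes thus had opposite signs for most shared events. The numbers were 134 of 145 in BRG1-mut, 27 of 48 in BRM-mut and 30 of 57 in BRG1-wt. Whether the opposite signs in BRM-wt lie in the libraries or in their labels was not tested.

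The exon of ANXA6 is shown because it is coding and short, 18 bases or 6 codons. It is exon 21 of the canonical transcript and lies in 3 of 16 annotated transcripts, at chr5:150490188-150490205. In capitals the exon and in lower case 20 bases of intron on each side (GRCh37, chr5:150490168-150490225, minus strand, 5′ to 3′) read as follows.
ANXA6 exon 21: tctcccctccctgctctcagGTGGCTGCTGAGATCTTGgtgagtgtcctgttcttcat
Its PSI was 0.87 in the control library and 0.70 in BRG1-mut (replicate 2, Bayes factor 19.5), a change of -0.17, while the gene itself was not called.

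Both ANXA2 exons are noncoding in the transcripts that hold them. An exon of 81 bases (chr15:60689457-60689537), present in 12 of 46 transcripts, had a PSI of 0.40 in the control library, 0.03 in BRM-wt (Bayes factor 11.1) and 0.02 in BRM-mut (Bayes factor 13.4). Both entries use the same control library. An exon of 277 bases (chr15:60688350-60688626), in 4 of 46 transcripts, had a PSI of 0.76 in control and 0.43 in BRM-wt, with a Bayes factor of 228. The value of a single library pair stands behind each entry, and no test between replicates was possible. The direction of the BRM-wt changes is uncertain, since the replicates of BRM-wt had opposite signs for most shared events.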

How the data were processed

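Total RNA of 10 libraries was reverse transcribed with oligo-dT and sequenced. Per the labels and the paper's methods, the authors mapped reads with TopHat2 2.0.4 to GRCh37, counted them on genes with HTSeq 0.6.1 and compared 2 libraries of each group with 2 control libraries by DESeq2 with default options. The deposited base mean is a signal, the mean of 4 counts divided by size factors. The deposited log2 fold changes and their standard errors were shrunken by the authors' tool. The deposited Wald statistic is a score, and the deposited p-values are from the Wald test, unadjusted and adjusted by the Benjamini-Hochberg method. These columns are the authors' own comparisons, used because no counts per library were analysed here. The deposited PSI of MISO is a fraction, and the authors' Bayes factor is a score. A second copy of the BRG1-wt table was not used.

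The methods give a nominal sequencing depth, but the tables used here hold no counts per library, so no counting intervals are given. Genes with a deposited adjusted p under 0.05 were called. The shrinkage was undone with a normal prior whose width is a fixed multiple of the largest standard error of the table. For genes with a base mean under 100 the larger of both solutions was taken where the smaller lay under the counting error and the 1st percentile of errors of genes whose base mean reached 5000. Of 63152 identifiers, 55139 matched the GENCODE annotation of GRCh37, which gave length and GC content. The members and gene lists were chosen with earlier results of these data known. All 10 genes were named in every group, and of each list at most 4 called genes with the smallest adjusted p, with KRT19, CDH1, CD3E, S100A3, S100A5, S100A1, MYH9, FPR1, FPR3, ANXA4, ANXA7 and ANXA11 named after their values were seen. Alternatives were an adjusted p under 0.01, adjustment across all genes that had a p-value, a base mean of at least 100, a log2 fold change of at least 1, subtraction of the median by GC content (50 bins) or by GC content and length (20 by 10 bins), centring on the median, undoing the shrinkage, and for events a Bayes factor above 20, a PSI change of at least 0.2 and either replicate alone. An item of the list of partners is not reported here. The scripts were tested on simulated tables with known changes. Python 3.11.15, pandas 2.3.3, numpy 2.4.6, scipy 1.17.1, pysam 0.24.0 and matplotlib 3.10.9 were used.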

Additional observations from a re-analysis of the deposited data

Results flagged for a closer look

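In 3 cases the effect of the wild-type ATPase against control differed from that of the mutated ATPase by the test of the difference across all genes on the DESeq2 values. ANXA3 was higher in BRG1-wt than in BRG1-mut by 1.88 on the log2 scale (adjusted p = 0.00741, DESeq2 values) and higher in BRM-wt than in BRM-mut by 1.83 (adjusted p = 8.52e-06, DESeq2 values). With the shrinkage undone, the latter difference was 3.16 with an adjusted p of 0.0593 and was no longer called, while the former was (3.24, adjusted p = 0.00381, DESeq2 values with shrinkage undone). S100A4 was higher in BRM-wt than in BRM-mut by 1.69 (adjusted p = 3.96e-05, DESeq2 values), and by 2.67 with the shrinkage undone (adjusted p = 0.0286, DESeq2 values). The tables give no values of single libraries, so that libraries far from the others could not be searched for, and the part of a single library in these differences was not tested.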

How the results depend on the processing

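No paired analysis was possible because the expression tables hold 1 fitted value per group and no values of single libraries, and for the same reason no library could be left out of them. In BRG1-wt, 4 members were called as deposited, between 3 and 5 under the other settings, and 2 with a log2 fold change of at least 1. In BRM-wt 2 were called and in BRG1-mut 0 under every setting run. In BRM-mut 1 was called with the GC trend or the GC and length trend subtracted, which was S100A6 at 0.094 and 0.091, at a base mean of 0.27. With the GC trend subtracted 7.29% of all genes were called higher there. The same subtraction called S100A6 between BRG1-wt and BRG1-mut (0.52) and, with the sign turned, between BRG1-mut and BRM-mut (-0.73), which raised these counts to 3 and 1. A trend learnt on abundant genes is larger than the shrunken error of a gene with a base mean under 2, and no call of S100A6 was left with GC subtraction limited to a base mean of at least 100, an alternative chosen after seeing the data. Members that differed between BRG1-wt and BRG1-mut numbered 1 as deposited, 2 with the shrinkage undone and 0 with a base mean of at least 100, with or without the GC trend. Between BRM-wt and BRM-mut they numbered 2, then 1, since ANXA3 lost its call (adjusted p = 0.0593, DESeq2 values), and 0. ANXA3 and S100A4 lie under that base mean in the mutant tables and are not tested there. Of the exons of member genes, 3 were listed, 1 with a Bayes factor above 20 and 0 in both replicates, and leaving out either replicate gave 0 to 3. In related lists 8 counts moved by more than 1.5 times. Of 440 member values under an alternative, 43 changed sign without being called in either setting.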
